A study of Mus musculus with 15 samples.

Results

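Lymphocytes find their place in a lymph node, and leave it again, by means of chemoattractant receptors. The genes of 7 such receptors, Cxcr5, Ccr7, Cxcr4, Gpr183, S1pr1, S1pr2 and S1pr4, were followed here among the 27179 genes listed in a count table of cultured mouse CD4 T cells. They were chosen by name, each was found in the table, and all 7 were among the 12591 genes tested. The cells fell into 3 conditions named Tfh (T follicular helper), Th17 and Th1, with 5 libraries each. Per the labels, naive CD4 T cells were stimulated for 3.5 days through CD3 and CD28 by antibodies bound to the plate, and then sorted into Trizol LS, and the cytokines of each condition were not named in the labels. The design text describes the Tfh gate as CXCR5+ and IL-17A- and the Th1 gate as IFNg+. Where a Th17 gate would stand it names the Tfh gate a second time, so the Th17 gate is not known. Cells of all 3 conditions carried the genotype B6.Cg-Ifngtm3.1Lky-Il17atm1.1Lky, in which the Ifng and Il17a alleles are altered, so no condition is a plain wild type. No label says whether the libraries came from separate mice or cultures, so each p-value reflects the variation among these libraries, part or all of which may be technical.

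CXCR5 draws lymphocytes into B cell follicles along its ligand CXCL13, and CCR7 draws them into the T cell zone along CCL19 and CCL21. GPR183, also called EBI2, follows oxysterols to the follicle border and the outer T zone, and CXCR4 follows CXCL12. Of the receptors for sphingosine-1-phosphate (S1P), S1PR1 carries T cells out into the lymph, and S1PR2 opposes migration and helps to hold Tfh cells in germinal centres. All 7 proteins are G protein-coupled receptors whose position on the cell surface is also set after transcription, which messenger RNA counts do not show.

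Library depth ran from 4.87 to 25.2 M counts, M standing for 1000000, with a median of 10.5 M. It averaged 8.77 ± 2.8 M in Tfh, 10.4 ± 1.12 M in Th17 and 13.1 ± 6.95 M in Th1 (SD, n = 5 each). The 6 T cell markers summed to 4417 to 5784 CPM (counts per M counts, on library sizes scaled with TMM factors) in Tfh, 3708 to 4771 CPM in Th17 and 2508 to 3838 CPM in Th1. The 5 Th1 markers summed to 17.5 to 36.4 CPM in Tfh, 55.6 to 81.2 CPM in Th17 and 2873 to 3312 CPM in Th1. The 6 Th17 markers summed to 4199 to 5960 CPM in Tfh, 11607 to 13560 CPM in Th17 and 44.5 to 87 CPM in Th1. The sum of 8 Tfh markers did not set the Tfh libraries apart, at 1932 to 2569 CPM in Tfh, 1582 to 2111 CPM in Th17 and 1930 to 3021 CPM in Th1, where Cd200 alone averaged 1364 CPM. Markers of other cells were low. The 9 dendritic and myeloid markers summed to at most 7.35 CPM in any library, the 4 markers of NK and innate cells to at most 1.09, and both CD8 markers to at most 26.1. The 8 B cell markers summed to 0 to 4.28 CPM in Tfh, 1.76 to 3.82 CPM in Th17 and 15.9 to 27.8 CPM in Th1. Most of the Th1 sum was Ebf1 (mean 17.4 CPM), and Pax5 had no count in any library.

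A gene was called at an adjusted p under 0.05 in the edgeR quasi-likelihood test, with Benjamini-Hochberg adjustment across the whole set of tested genes. Of the 7 receptor genes, 4 were called between Tfh and Th17, where 16.8% of all genes were called. Cxcr5 and S1pr1 were higher in Tfh (6.8% of all genes) and Cxcr4 and Gpr183 lower (9.98%). Between Tfh and Th1, 5 receptor genes were called, beside 49.3% of all genes. There Cxcr5, Cxcr4 and S1pr4 were higher in Tfh (24.1% of all genes), and Gpr183 and S1pr1 were lower (25.2%). Between Th17 and Th1, 5 were called beside 36.9% of all genes. Cxcr5, Cxcr4 and S1pr4 were higher in Th17 (19% of all genes) and Gpr183 and S1pr1 lower (17.8%). The median log2 fold change of the 7 genes was -0.01 for Tfh over Th17, 0.11 for Tfh over Th1 and 0.32 for Th17 over Th1, beside -0.01, -0.01 and 0.03 over all genes tested. The 3 comparisons share libraries in pairs, so their calls are not independent of each other. Cxcr5 was part of the Tfh sort, and without it 3 of 6 genes were called between Tfh and Th17 and 4 of 6 between Tfh and Th1.

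**Figure D1:**
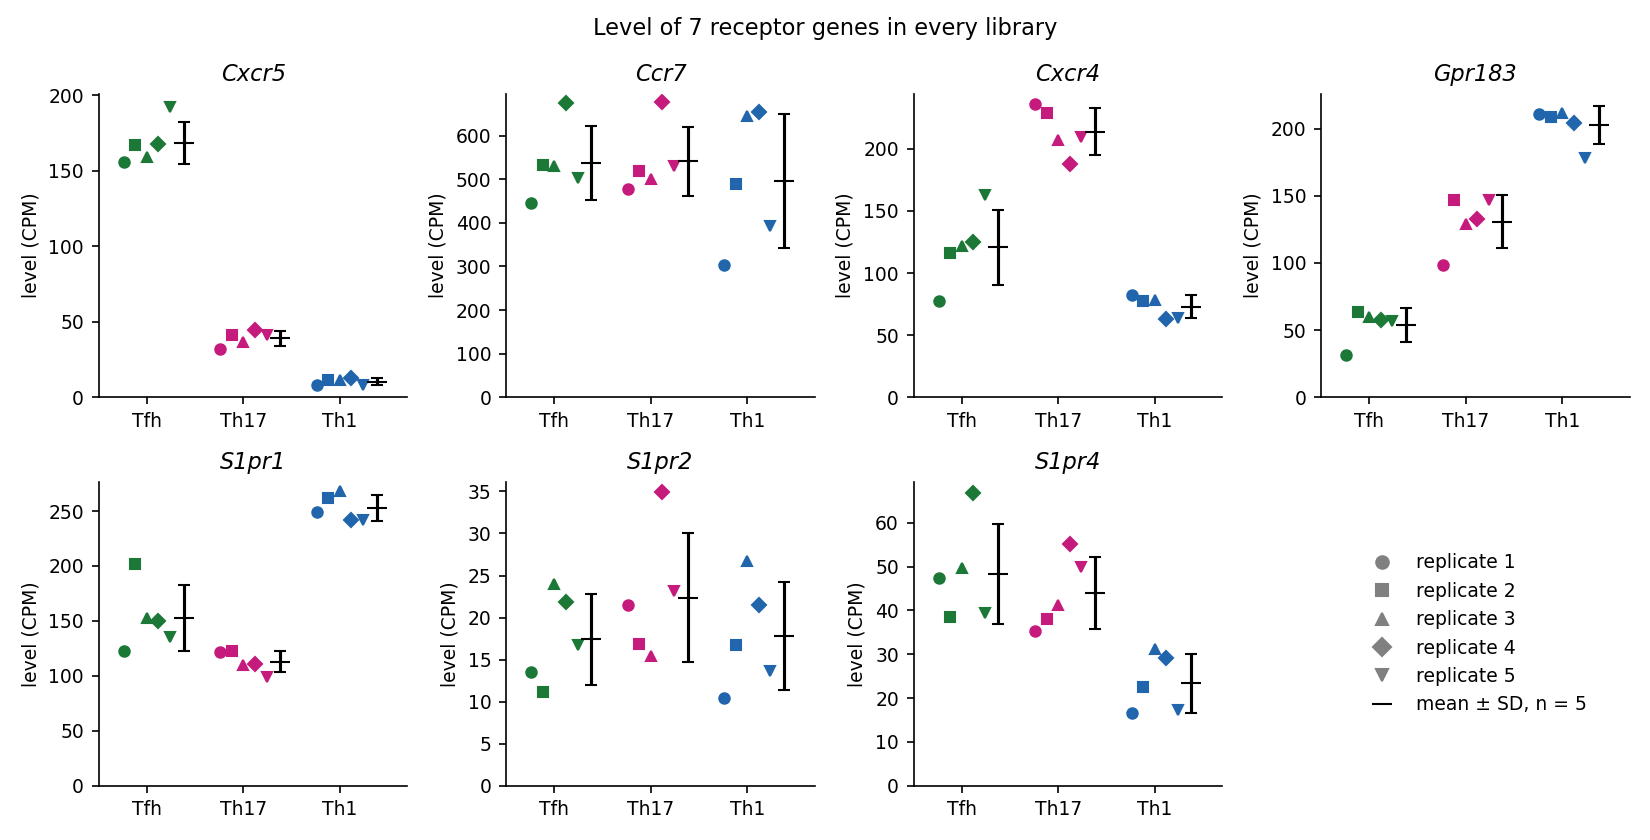
Level of the 7 receptor genes in CPM (vertical axis) in each of the 15 libraries, by condition (horizontal axis). Points are libraries, with a symbol for each replicate number, and bars give mean ± SD of 5 libraries. Gpr183 runs lowest in Tfh and highest in Th1, Cxcr4 is highest in Th17, and the Ccr7 ranges of the 3 conditions overlap.

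Cxcr5 (gene ID 12145; chr9, 44511787 to 44526444, minus strand, GRCm38) was highest in Tfh, intermediate in Th17 and lowest in Th1. In replicates 1 to 5 it reached 156, 167, 159, 168 and 192 CPM in Tfh, 32, 41.2, 36.6, 44.2 and 40.9 CPM in Th17, and 7.85, 11.1, 11.3, 12.8 and 8.26 CPM in Th1. No library of one condition reached the range of another. The Tfh cells were sorted on the CXCR5 protein, so their 2 contrasts describe the sort and are no finding. They came to a log2 fold change of 2.11 ± 0.15 (SE) over Th17 and 4.03 ± 0.16 over Th1. Whether the Th17 cells were also gated on CXCR5 is not known, so the comparison of Th17 with Th1 may depend on the sort as well. Cxcr5 averaged 39 ± 4.75 CPM in Th17 and 10.3 ± 2.13 CPM in Th1 (SD, n = 5 each). This was a 3.78-fold higher level in Th17 (log2 fold change 1.92 ± 0.15, edgeR adjusted p = 9.91e-09). In bulk libraries such as these, more cells with the transcript and more transcript per cell cannot be told apart. The exons of Cxcr5 share 110 bases with Bcl9l on the other strand, and the sources used here do not state whether counting used strand. Bcl9l had 12.7 to 48.5 CPM in Tfh, 9.48 to 34.4 CPM in Th17 and 3.64 to 13.7 CPM in Th1. Its means of 28.3 ± 14 CPM in Tfh, 18.7 ± 9.54 CPM in Th17 and 8.74 ± 4.56 CPM in Th1 (SD, n = 5 each) ran in the same order as those of Cxcr5, and its ranges overlapped. Its part in the Cxcr5 counts was not tested.

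Ccr7 (gene ID 12775; chr11, 99144199 to 99155077, minus strand) encodes the T zone receptor, the counterpart of CXCR5 in the placing of helper cells. It had 445, 532, 531, 675 and 503 CPM in Tfh, 477, 518, 500, 678 and 531 CPM in Th17, and 303, 488, 644, 654 and 393 CPM in Th1. The 3 ranges overlapped, and the Th1 range covered most of the other two. Means were 537 ± 84.6 CPM in Tfh, 541 ± 79.5 CPM in Th17 and 496 ± 154 CPM in Th1 (SD, n = 5 each). No comparison was called. The log2 fold change was -0.01 for Tfh over Th17 (95% interval -0.40 to 0.38, edgeR adjusted p = 0.981), 0.11 for Tfh over Th1 (-0.27 to 0.50, adjusted p = 0.642) and 0.12 for Th17 over Th1 (-0.26 to 0.51, adjusted p = 0.646). These intervals leave room for differences of up to about 0.5 on the log2 scale. The ratio of Cxcr5 to Ccr7 CPM had separate ranges in the 3 conditions. Its median was 0.315 in Tfh (range 0.249 to 0.382), 0.0732 in Th17 (0.0652 to 0.0795) and 0.021 in Th1 (0.0175 to 0.0259). Ccr7 was called in no comparison, and the order of the ratio is that of Cxcr5. The Tfh cells were sorted on CXCR5, so their ratio describes the sort and is no finding.

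Cxcr4 (gene ID 12767; chr1, 128588199 to 128592299, minus strand) was highest in Th17. Its receptor guides cells to CXCL12, for example in the bone marrow and the dark zone of germinal centres. Cxcr4 had 77.3, 116, 122, 125 and 163 CPM in Tfh, 236, 229, 207, 188 and 210 CPM in Th17, and 82.4, 77.1, 78.6, 62.7 and 63.4 CPM in Th1. All Th17 libraries lay above those of the other conditions, and Tfh replicate 1 lay within the Th1 range while the other 4 Tfh libraries were above it. The Tfh mean of 121 ± 30.4 CPM was 1.77-fold below the Th17 mean of 214 ± 18.9 CPM (SD, n = 5 each; log2 fold change -0.82 ± 0.16, edgeR adjusted p = 0.0013). Tfh cells were 1.66-fold above the Th1 mean of 72.9 ± 9.13 CPM (0.73 ± 0.16, edgeR adjusted p = 0.00091). Th17 cells were 2.94-fold above Th1 cells (1.55 ± 0.16, edgeR adjusted p = 3.82e-07).

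Gpr183 (gene ID 321019; chr14, 121952331 to 121965193, minus strand) had its lowest level in Tfh and its highest in Th1. It had 31.3, 63.7, 59.8, 57.7 and 56.9 CPM in Tfh, 98.5, 147, 129, 133 and 147 CPM in Th17, and 211, 209, 212, 204 and 178 CPM in Th1. The 3 conditions formed 3 separate ranges. The Tfh mean of 53.9 ± 12.9 CPM was 2.42-fold below the Th17 mean of 131 ± 19.8 CPM (log2 fold change -1.28 ± 0.17, edgeR adjusted p = 3.62e-05) and 3.75-fold below the Th1 mean of 203 ± 14.4 CPM (-1.91 ± 0.17, edgeR adjusted p = 3.01e-08; SD, n = 5 each). Th17 lay 1.55-fold below Th1 (-0.63 ± 0.16, edgeR adjusted p = 0.00497). GPR183 is abundant on B cells. In the Th1 libraries the summed B cell markers were also higher, most of them Ebf1, while Pax5 was at 0. Their part in the Gpr183 level was not tested. The ratio of Cxcr4 to Gpr183 CPM had a median of 2.17 in Tfh (1.83 to 2.86), 1.56 in Th17 (1.42 to 2.39) and 0.369 in Th1 (0.307 to 0.391). The Tfh and Th17 ratios overlapped, and both genes were lower in Tfh than in Th17.

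Cxcr5, Cxcr4, Gpr183 and S1pr1 were called in all 3 comparisons. The promoter table used here, from RefSeq on GRCm38.p6, matched 4 of the 7 genes, Cxcr4, Gpr183, S1pr2 and S1pr4, and the promoters of Cxcr4 and Gpr183 are shown as those of genes both called throughout and matched. Each runs from 250 bases before to 50 bases after the gene start, 5′ to 3′ on the strand of the gene. The window of Cxcr4 is chr1:128592250-128592549 and that of Gpr183 is chr14:121965144-121965443, both on the minus strand. Capitals mark the letters CACCC or their complement GGGTG, a core of sites of Krüppel-like factors such as KLF2.
Cxcr4: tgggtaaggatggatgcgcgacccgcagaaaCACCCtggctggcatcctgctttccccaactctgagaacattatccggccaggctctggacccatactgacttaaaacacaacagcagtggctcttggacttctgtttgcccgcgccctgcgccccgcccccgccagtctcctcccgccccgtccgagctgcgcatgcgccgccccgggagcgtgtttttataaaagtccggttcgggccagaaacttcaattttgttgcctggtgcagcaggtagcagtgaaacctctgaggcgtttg
Gpr183: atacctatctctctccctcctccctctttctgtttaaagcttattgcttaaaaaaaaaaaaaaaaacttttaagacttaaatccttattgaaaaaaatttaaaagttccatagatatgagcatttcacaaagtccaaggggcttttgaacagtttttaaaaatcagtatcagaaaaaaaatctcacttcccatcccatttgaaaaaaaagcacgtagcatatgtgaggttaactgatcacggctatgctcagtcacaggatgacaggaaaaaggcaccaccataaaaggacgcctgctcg
The GC content was 59.3% in the Cxcr4 window and 35.3% in the Gpr183 window. Motifs of 3 kinds were searched on both strands, each by itself, so that matches of different kinds may overlap. CACCC occurred 1 time in the windows of Cxcr4, S1pr2 and S1pr4 and 0 times in that of Gpr183, and 57.5% of 32851 promoters of the same length held it. The forkhead letters GTAAACA, known from sites of FOXO factors, were in none of the 4 windows and in 3.6% of all promoters. The E-box CANNTG, which E proteins and ASCL2 bind, occurred 2 times for Gpr183, 4 times for S1pr2 and for S1pr4 and 0 times for Cxcr4, and 72.3% of all promoters held it. These matches are descriptions of the letters and not of binding.

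**Figure D2:**
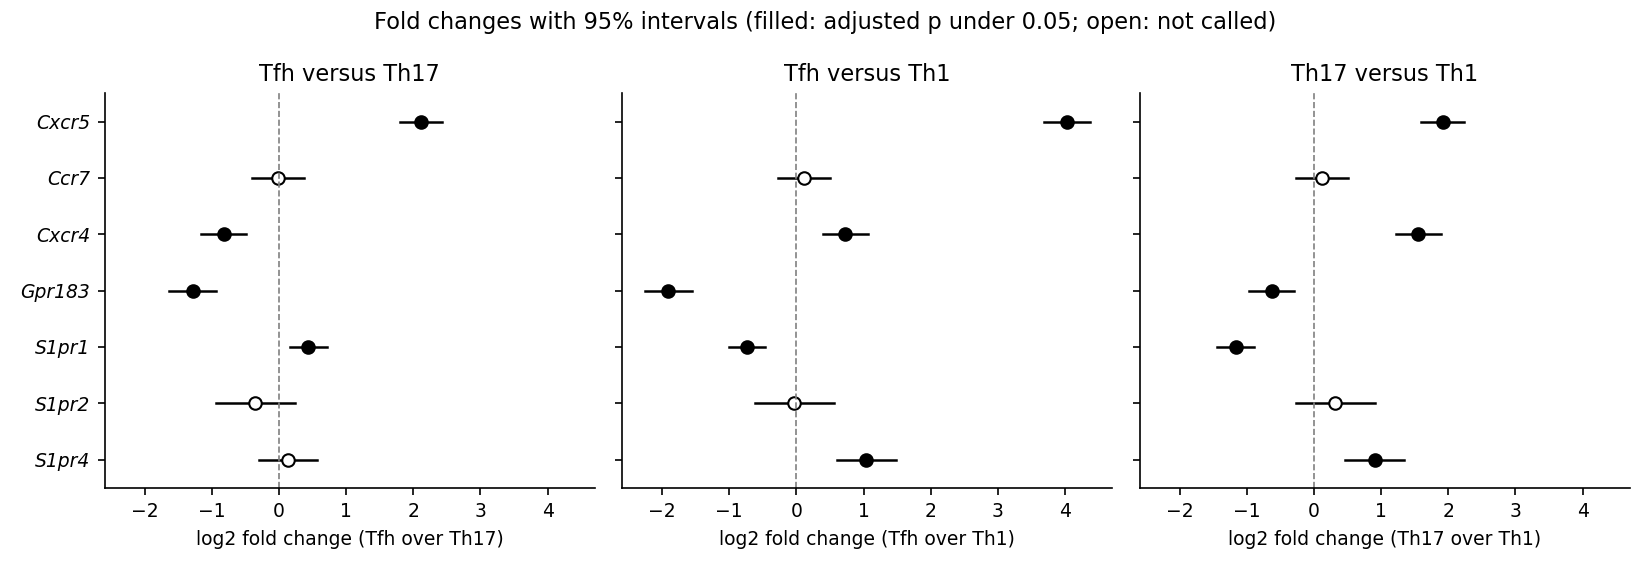
Log2 fold changes (horizontal axis) of the 7 receptor genes (rows) with 95% intervals, for Tfh over Th17, Tfh over Th1 and Th17 over Th1. Filled points have an edgeR adjusted p under 0.05 and open points do not. Ccr7 and S1pr2 are open in all 3 panels, and S1pr1 lies right of 0 for Tfh over Th17 and left of 0 in the other panels.

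S1pr1 (gene ID 13609; chr3, 115710433 to 115715055, minus strand), the egress receptor, was highest in Th1 and lowest in Th17. It had 123, 202, 153, 150 and 135 CPM in Tfh, 122, 123, 110, 111 and 98.9 CPM in Th17, and 249, 262, 268, 242 and 242 CPM in Th1. The Th1 libraries stood well above all others, and the lowest Tfh library and the highest Th17 library met at 123 CPM after rounding. The Tfh mean of 153 ± 29.9 CPM was 1.66-fold below the Th1 mean of 253 ± 12.1 CPM (log2 fold change -0.73 ± 0.13, edgeR adjusted p = 0.000113; SD, n = 5 each). The Th17 mean of 113 ± 9.87 CPM was 2.24-fold below Th1 (-1.16 ± 0.13, edgeR adjusted p = 8.23e-07). Tfh was 1.35-fold above Th17 (0.44 ± 0.13, 95% interval 0.17 to 0.71, edgeR adjusted p = 0.0239). That last call was lost without Tfh replicate 2 (0.33, adjusted p = 0.059) or without Th17 replicate 5 (0.41, adjusted p = 0.0581), and its adjusted p ran from 0.000371 to 0.059 over 25 alternatives. B cell markers were higher in the Th1 libraries as well, at the low level given above, and their part in the S1pr1 level was not tested.

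KLF2 is known as an activator of S1pr1, and FOXO1 as an activator of Klf2. Klf2 had 96.3, 99.7, 114, 99.8 and 66.4 CPM in Tfh, 22.8, 32, 24.1, 23 and 23.1 CPM in Th17, and 1.54, 2.51, 1.57, 0.646 and 2.55 CPM in Th1. The 3 ranges did not overlap, and in Th1, where S1pr1 was highest, Klf2 was lowest. Klf2 was 3.81-fold higher in Tfh than in Th17 (log2 fold change 1.93 ± 0.22, edgeR adjusted p = 9.57e-06) and 53.7-fold higher in Tfh than in Th1 (5.75 ± 0.28, edgeR adjusted p = 5.86e-12). The ratio of S1pr1 to Klf2 CPM had a median of 1.51 in Tfh, 4.55 in Th17 and 162 in Th1, and its ranges of 1.28 to 2.03, 3.83 to 5.35 and 94.6 to 375 did not overlap. Foxo1 ran in the same order as Klf2, with 650 ± 25.6 CPM in Tfh, 452 ± 36.4 CPM in Th17 and 152 ± 12.8 CPM in Th1 (SD, n = 5 each). Cd69, whose protein binds S1PR1 and takes it off the surface, averaged 108 ± 45.3 CPM in Tfh, 79.2 ± 28 CPM in Th17 and 77.1 ± 27.6 CPM in Th1 and was called in no comparison. The 5 markers of undivided naive T cells, Ccr7 among them, summed to 2022 to 2870 CPM in Tfh, 1574 to 2006 CPM in Th17 and 1044 to 1422 CPM in Th1, an order unlike that of S1pr1.

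**Figure D3:**
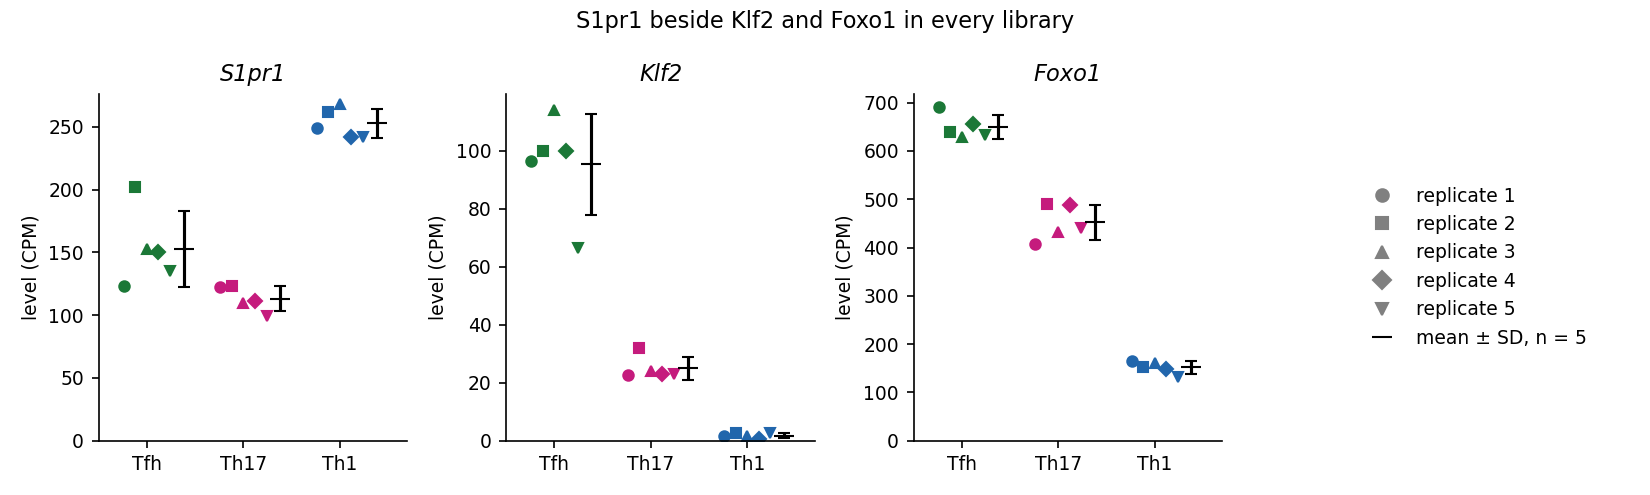
Levels in CPM (vertical axes) of S1pr1, Klf2 and Foxo1 in each library, by condition (horizontal axes), with mean ± SD of 5 libraries as bars. S1pr1 is highest in Th1, where Klf2 reaches at most 2.55 CPM.

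S1pr2 (gene ID 14739; chr9, 20965952 to 20976793, minus strand), the receptor that confines cells to follicles, was low in all conditions. It had 13.5, 11.2, 24, 21.8 and 16.7 CPM in Tfh, 21.5, 16.9, 15.4, 34.9 and 23.2 CPM in Th17, and 10.4, 16.7, 26.7, 21.5 and 13.6 CPM in Th1. The 3 ranges overlapped almost whole. The log2 fold change was -0.35 for Tfh over Th17 (95% interval -0.94 to 0.24, edgeR adjusted p = 0.449) and -0.03 for Tfh over Th1 (-0.62 to 0.56, adjusted p = 0.942). For Th17 over Th1 it was 0.32 (-0.27 to 0.91, adjusted p = 0.402). Its spread over replicates, a coefficient of variation of 31.1% in Tfh, 34.3% in Th17 and 36.4% in Th1, was the widest of the 7 genes in each condition, and the intervals are wide enough to hold differences of over 0.5 on the log2 scale in either direction for Tfh over Th1.

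S1pr4 (gene ID 13611; chr10, 81497745 to 81500137, minus strand) encodes an S1P receptor found mainly in blood and lymphoid cells. It had 47.4, 38.4, 49.6, 66.8 and 39.4 CPM in Tfh, 35.4, 38.1, 41.2, 55.1 and 49.8 CPM in Th17, and 16.5, 22.5, 31.2, 29.2 and 17.3 CPM in Th1. Tfh and Th17 shared a range, and every library of both lay above the Th1 libraries. The Tfh mean of 48.3 ± 11.4 CPM was 2.06-fold above the Th1 mean of 23.3 ± 6.7 CPM (log2 fold change 1.04 ± 0.21, edgeR adjusted p = 0.000423; SD, n = 5 each). The Th17 mean of 43.9 ± 8.29 CPM was 1.87-fold above Th1 (0.91 ± 0.21, edgeR adjusted p = 0.00206). Tfh over Th17 was 0.14 (95% interval -0.29 to 0.57, edgeR adjusted p = 0.714). S1pr1 and S1pr4 thus moved in opposite directions against Th1. Of the other S1P receptors, S1pr3 averaged 4.37 ± 2.68 CPM in Tfh, 9.53 ± 2.52 CPM in Th17 and 32.2 ± 6.3 CPM in Th1. It was 7.09-fold lower in Tfh than in Th1 (edgeR adjusted p = 6.15e-06). S1pr5 had 10 counts in all Th1 libraries together and 0 in the Tfh and Th17 libraries. The ratio of S1pr1 to S1pr2 CPM had a median of 8.08 in Tfh (6.36 to 18.1), 5.67 in Th17 (3.17 to 7.24) and 15.7 in Th1 (10 to 24). The Tfh range overlapped those of Th17 and Th1, and S1pr2 itself was called in no comparison.

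Set on a scale per kilobase of exon, so that genes can be compared with each other, Ccr7 led in every condition, with 271 CPM per kb in Tfh, 273 in Th17 and 251 in Th1. Its share of the summed level of all 7 genes per kb was 56.5% in Tfh, 53.7% in Th17 and 53.6% in Th1. S1pr2 was last, with 2.19, 2.81 and 2.23 CPM per kb in Tfh, Th17 and Th1. Between these ends the order differed by condition. Cxcr4 was the second in Tfh and Th17, at 66.7 and 118 CPM per kb, and the fourth in Th1 at 40.3. S1pr1 was the second in Th1, at 83 CPM per kb, and the fourth in Tfh and Th17, at 50.1 and 37. In Tfh it stood beside Cxcr5 at 50.6 CPM per kb, a difference within the spread of both. Gpr183 was the third in Th17 and Th1, at 45.3 and 70.2 CPM per kb, and the sixth in Tfh at 18.7, where it did not differ from S1pr4 at 20.2 beyond their spread. Gpr183 held 3.86% of the summed level in Tfh, 8.94% in Th17 and 15.6% in Th1, and Cxcr5 10.7%, 2.3% and 0.669%. The Cxcr5 share in Tfh is tied to the sort. The sum itself was 480 ± 61.6 CPM per kb in Tfh, 507 ± 38.8 in Th17 and 460 ± 84.4 in Th1 (SD, n = 5 each), closer together than its spread.

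**Figure D4:**
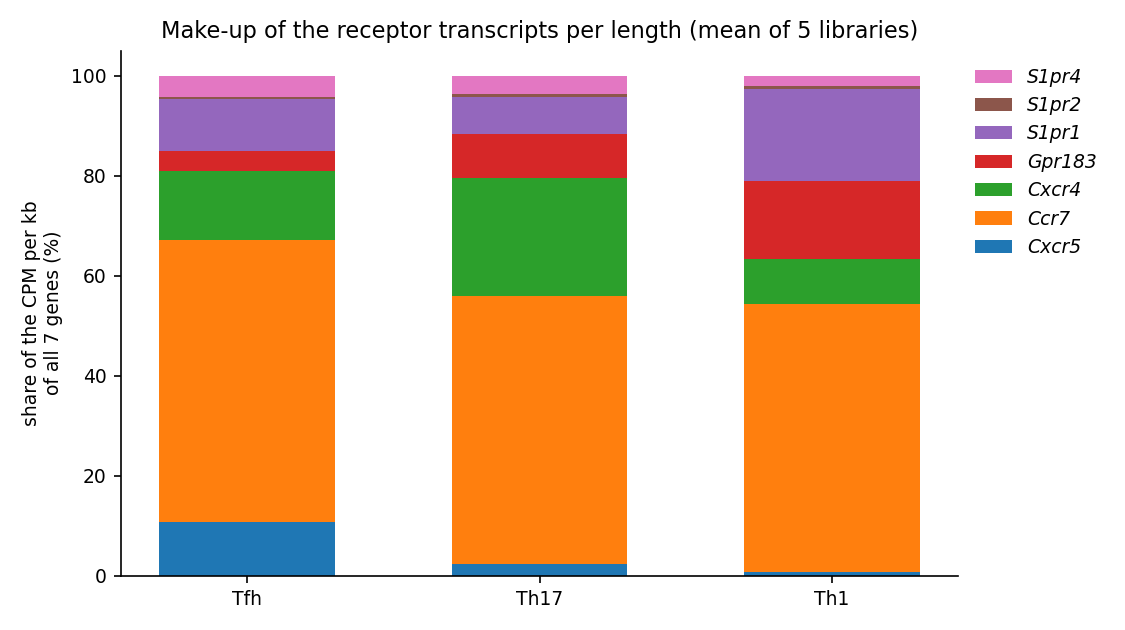
Share (vertical axis, percent) of each receptor gene in the summed CPM per kb of all 7 genes, as the mean of 5 libraries per condition (horizontal axis). Ccr7 holds over 50% in each condition, and the shares of Gpr183 and S1pr1 are largest in Th1.

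The genes around these receptors were read by 7 lists. Their counts are to be set beside the 16.8%, 49.3% and 36.9% of all genes called for Tfh over Th17, Tfh over Th1 and Th17 over Th1, and shares and medians are given in that order of comparisons. Of 11 tested egress genes, 2 were called higher in Tfh than in Th17 (Klf2 and Foxo1) and 0 lower, with a median log2 fold change of 0.16 beside -0.01 over all genes. Against Th1, 3 were higher in Tfh, among them Coro1a, a regulator of actin needed for T cell egress, at 765 ± 68.9 CPM in Tfh and 492 ± 66.6 in Th1, and 5 were lower, among them S1pr3 and Foxo3. Between Th17 and Th1, 3 were higher in Th17 and 5 lower. The list median was 0.12 for Tfh over Th1 and 0.04 for Th17 over Th1, beside -0.01 and 0.03 over all genes. The shares called were 18.2%, 72.7% and 72.7%. Of 12 tested genes of S1P metabolism and transport, 1 was higher and 2 lower in Tfh than in Th17, and 3 were higher and 4 lower in Tfh than in Th1. Between Th17 and Th1 it was 3 higher and 3 lower in Th17, and the 3 medians were -0.24, -0.21 and 0.17. The shares called were 25%, 58.3% and 50%. The gene of S1P lyase, Sgpl1, which breaks S1P down, was called in all 3 comparisons. It averaged 176 ± 7.79 CPM in Tfh, 104 ± 8.86 CPM in Th17 and 40.5 ± 1.82 CPM in Th1, a 4.34-fold higher level in Tfh than in Th1 (edgeR adjusted p = 1.22e-11). Of 11 genes of ligands and scavengers only 2 had enough counts to be tested, and of these 0 were called between Tfh and Th17, while 1 was lower in Tfh than in Th1 and 1 lower in Th17 than in Th1. Cxcl12 had 0 counts in Tfh, 3 in Th17 and 1 in Th1, and Cyp7b1, an enzyme of oxysterol synthesis, had no count in any library.

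Of 15 tested genes for the G proteins of these receptors and the steps behind them, 1 was called between Tfh and Th17, Dock2, an activator of Rac in chemotaxis. Dock2 averaged 649 ± 36.4 CPM in Tfh and 469 ± 32.3 in Th17 (edgeR adjusted p = 0.00365). Against Th1, 7 were higher in Tfh and 3 lower, and 5 were higher in Th17 and 3 lower. The list medians were -0.08 for Tfh over Th17, 0.20 for Tfh over Th1 and 0.15 for Th17 over Th1. The shares called were 6.67%, 66.7% and 53.3%, which was below that of all genes for Tfh over Th17. Pik3cg, which encodes a phosphoinositide kinase driven by G protein subunits, was 3.75-fold higher in Tfh, at 115 ± 10.9 CPM in Tfh and 30.5 ± 3.47 in Th1 (edgeR adjusted p = 3.23e-10). Gnaq was 3.31-fold lower in Tfh, at 16.5 ± 5.89 CPM in Tfh and 54.3 ± 8.15 in Th1 (edgeR adjusted p = 8.71e-06). Among 16 tested genes that switch such signals off, 4 were higher and 4 lower in Tfh than in Th17, 6 were higher and 3 lower in Tfh than in Th1, and 5 were higher and 3 lower in Th17 than in Th1. Their medians were 0.24, 0.40 and 0.18. These were 50%, 56.2% and 50% of the list, so that the share between Tfh and Th1 was near that of all genes. Rgs10 and Rgs1, whose proteins speed the turning off of G proteins, ran in opposite orders. Rgs10 averaged 1459 ± 141 CPM in Tfh, 620 ± 77.2 CPM in Th17 and 94 ± 16.1 CPM in Th1, a 15.5-fold higher level in Tfh than in Th1 (edgeR adjusted p = 2.2e-13). Rgs1 averaged 85.8 ± 18 CPM in Tfh, 188 ± 74.2 CPM in Th17 and 360 ± 147 CPM in Th1, a 4.2-fold lower level in Tfh than in Th1 (edgeR adjusted p = 7.37e-06).

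Of 12 tested transcription factors known to act on these receptors, 3 were higher and 1 lower in Tfh than in Th17, 6 were higher and 3 lower in Tfh than in Th1, and 6 were higher and 4 lower in Th17 than in Th1, with medians of 0.37, 0.42 and 0.24. The shares called were 33.3%, 75% and 83.3%. Bcl6, the factor that defines Tfh cells, averaged 125 ± 40.2 CPM in Tfh, 59.2 ± 18.7 CPM in Th17 and 13.3 ± 4.71 CPM in Th1. Maf, whose product c-Maf takes part in Tfh differentiation, averaged 1630 ± 350 CPM in Tfh, 798 ± 194 CPM in Th17 and 10.7 ± 2.75 CPM in Th1. Nfil3 ran in the other direction, at 16.9 ± 2.7, 43.6 ± 6.42 and 132 ± 30.9 CPM in Tfh, Th17 and Th1. Ascl2, a known activator of Cxcr5, had 5 counts in Tfh, 1 in Th17 and 5 in Th1 and was not tested. Among 20 tested receptors for other routes of migration, 5 were higher and 4 lower in Tfh than in Th17, 10 were higher and 7 lower in Tfh than in Th1, and 11 were higher and 5 lower in Th17 than in Th1, with medians of -0.23, 0.77 and 1.76. The shares called were 45%, 85% and 80%. Gpr15, known for the homing of T cells to the colon, averaged 357 ± 40 CPM in Tfh, 239 ± 15.5 CPM in Th17 and 0.787 ± 0.373 CPM in Th1. Cysltr1, a leukotriene receptor gene, averaged 19.5 ± 6.32 CPM in Tfh and 118 ± 35.3 in Th17, 6.03-fold lower in Tfh (edgeR adjusted p = 7.44e-06).

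Each receptor gene was set beside the genes whose log2 CPM was most like its own over the 15 libraries, among 8635 genes. The points of each such correlation share their libraries and conditions, and r is given as a description. The closest to Cxcr5 was Tsc22d1 (Pearson's r = 0.996), with 147 ± 12.7 CPM in Tfh, 42.1 ± 5.7 CPM in Th17 and 14.6 ± 3.02 CPM in Th1. The Tfh cells were sorted on CXCR5, so the Cxcr5 level in this likeness is tied to the sort. The closest to Cxcr4 were Cavin3 (r = 0.962) and Il17a (0.944), and Il17a averaged 15.1 ± 6.18 CPM in Tfh, 225 ± 24.4 CPM in Th17 and 0.0595 ± 0.0829 CPM in Th1. The Tfh gate was described as IL-17A-, so the Il17a level in Tfh is tied to the sort, and the Il17a allele was altered in all cells. The closest to Gpr183 were Slc2a3 (r = 0.979) and the chemokine gene Ccl3 (0.977), which averaged 2.33 ± 1.67 CPM in Tfh, 36.2 ± 5.05 CPM in Th17 and 135 ± 19.4 CPM in Th1. S1pr1 was nearest to Rasgrp1 (r = 0.985), S1pr4 to Lat (0.975), both genes of T cell receptor signalling, Ccr7 to Mpst (0.96) and S1pr2 to Eral1 (0.921).

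Pairs of receptor genes followed each other differently across conditions and within them. Over the 15 libraries, Cxcr5 and Gpr183 had r = -0.92 and Cxcr4 and S1pr1 had r = -0.84. After the mean of each condition was taken off, r was 0.39 and 0.32, so the opposite course lay between conditions and not between libraries of a condition. For Cxcr5, the course between conditions is tied to the Tfh sort on CXCR5. In Ccr7 and S1pr4, r was 0.67 over all libraries and 0.86 within conditions, and in S1pr2 and S1pr4 it was 0.53 and 0.82. Both values of a point share the depth and base composition of their library. The libraries differed in how counts depended on the GC content of genes. The trend, Spearman's rho across genes of each library's deviation against GC content, ran from -0.45 to 0.57 in Tfh, from -0.51 to 0.70 in Th17 and from -0.65 to 0.70 in Th1. Exonic GC content was 59.3% in S1pr4, 53.5% in Ccr7, 48.8% in S1pr1 and 44.9% in Gpr183. The libraries of each condition with the highest trend, Tfh replicate 4, Th17 replicate 4 and Th1 replicates 3 and 4, had the highest Ccr7 and S1pr4 levels of their conditions. After a correction of each library for GC content, the coefficient of variation of Ccr7 was 11.4% in Tfh, 6.92% in Th17 and 15.9% in Th1, against 15.8%, 14.7% and 31% before. For S1pr4 it was 9.88%, 4.7% and 10.6% after correction, against 23.6%, 18.9% and 28.7% before. For S1pr1 it was 18.3%, 8.05% and 5.06% after correction, against 19.6%, 8.75% and 4.78% before. For Gpr183 it was 23.1%, 20.6% and 16% after correction, against 23.9%, 15.2% and 7.09% before, so its spread was wider after correction in Th17 and Th1. Of the 21 coefficients of the 7 genes in 3 conditions, 16 were lower and 5 higher after correction. With the correction, Ccr7 remained without a call in all 3 comparisons and S1pr4 was called against Th1 in Tfh (log2 fold change 1.03, edgeR adjusted p = 1.76e-07) and in Th17 (0.94, adjusted p = 1.03e-06).

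**Figure D5:**
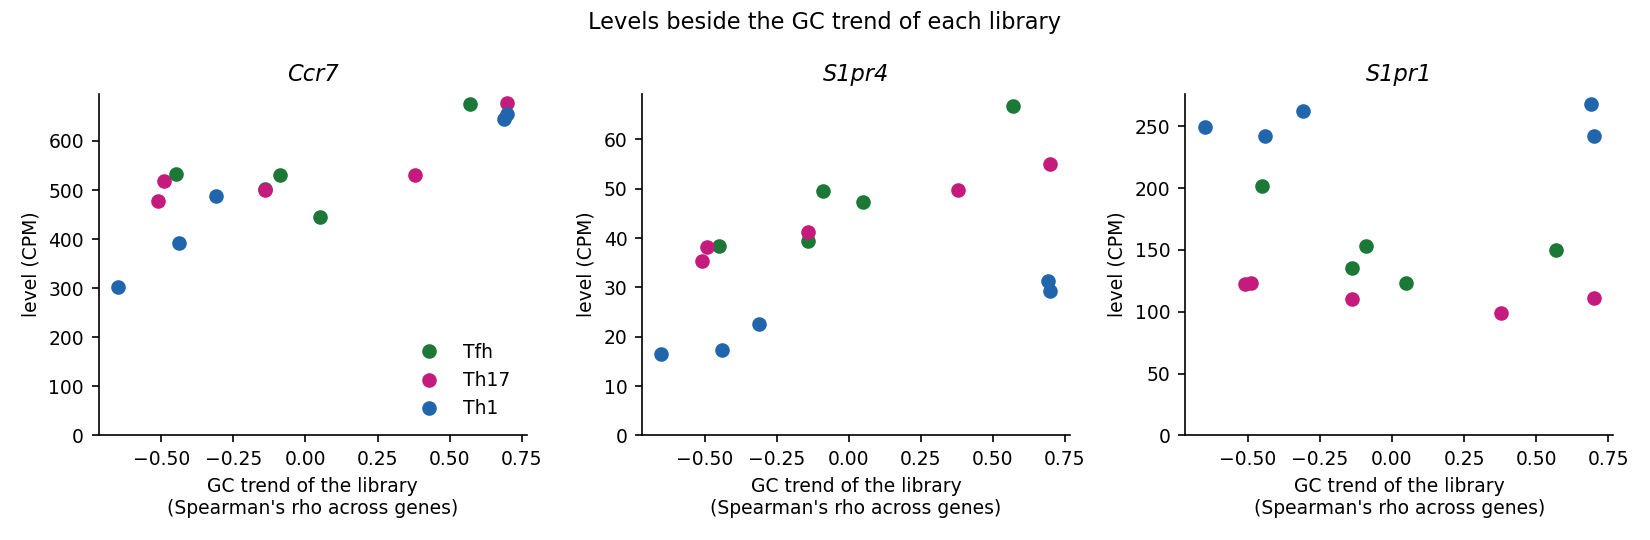
Level in CPM (vertical axes) of Ccr7, S1pr4 and S1pr1 in each library against the GC trend of that library (horizontal axes, Spearman's rho across genes), coloured by condition. Ccr7 and S1pr4 are highest in their conditions where the trend is highest, and the 5 Th1 libraries of S1pr1 stay between 242 and 268 CPM over trends of -0.65 to 0.70.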

How the data were processed

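Messenger RNA of sorted mouse CD4 T cells was sequenced from Lexogen SENSE libraries of 100 ng RNA input (per the labels). The authors deposited unnormalized counts for each Entrez gene ID and library. Per the submitters' processing notes, the authors used STAR 2.7.2b, the mm10 genome and featureCounts 1.6.4. Which annotation was used, whether counting used strand and how reads with several matches were counted is not given in the sources used here, so counts of overlapping genes are uncertain. All 15 single files matched the series table. Names came from RefSeq for 25275 IDs (GRCm38.p6, also the source of coordinates and promoters), from GENCODE for 17, and 1887 had none.

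The 5 libraries of a condition served as replicates. Any pair of them differed by more than counting noise (chi-square per gene of at least 9.79). In R 4.3.3, edgeR 4.0.16 filtered low counts (12591 genes kept, 5472 others with a count removed), scaled with TMM and fitted 1 model to all 15 libraries, without covariates. Robust quasi-likelihood tests were Benjamini-Hochberg adjusted over all genes tested. Scripts were checked on simulated data. CPM use TMM-scaled sizes, levels per kb use the union of a gene's exons, and 3 counts correspond to 0.127 to 0.58 CPM in a library. This floor covers counting error only, since PCR reads are not independent molecules. A log2 CPM for correlations had a prior count of 2.

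The receptor genes, the 7 lists and the marker lists were chosen with earlier results of these data known. Named were all 7 receptors and, from each list, genes among the 3 per direction and comparison with the largest fold changes of those called that reached 10 CPM; Cd69, S1pr5, Bcl9l, Cxcl12, Cyp7b1 and Ascl2 were added after their values were seen. For likeness the 3 closest genes averaging at least 10 CPM were taken. Alternatives were other scalings and filters, DESeq2 1.42.0, limma 3.58.1 (voom), a GC correction, a replicate block, fits on 2 conditions only, and each library left out. Some genes of the lists are counted in them but not reported here by name.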

Additional observations from a re-analysis of the deposited data

Results flagged for a closer look

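Among 39 sets of 5 libraries (the receptor genes, 5 genes beside them and depth, in each condition), 5 held a library whose distance from the nearest of the others was over 0.71 of the range of the set. Chance gives about 1 such set in 20. Ccr7 stood at 678 CPM in Th17 replicate 4, with the other 4 at 477 to 531 CPM. Gpr183 stood at 31.3 CPM in Tfh replicate 1, the shallowest library, with the others at 56.9 to 63.7 CPM. Without that library Gpr183 was still lower in Tfh than in Th17 (log2 fold change -1.14, edgeR adjusted p = 1.93e-05). Gpr183 also stood at 178 CPM in Th1 replicate 5, with the others at 204 to 212 CPM. Klf2 stood at 32 CPM in Th17 replicate 2, with the others at 22.8 to 24.1 CPM. The total of Th1 replicate 3 was 25.2 M counts, with the others at 7.34 to 11.5 M.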

How the results depend on the processing

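Of 525 values of the 7 receptor genes under 25 alternatives, 501 kept their direction and side of the threshold, and the calls of 4, 5 and 5 receptor genes held under every alternative that kept all libraries. The other 24 values belong to the results named next, and the cause was not tested. S1pr1 between Tfh and Th17 ranged from 0.33 to 0.50 with single libraries left out, and lost its call without Tfh replicate 2 or Th17 replicate 5. The remaining 22 changed the sign of differences that were not called. Ccr7 for Tfh over Th17 was 0.02 with RLE scaling, library size only, DESeq2 or the GC correction, 0.01 with the block and GC correction or with the 2 conditions alone, and -0.11 to 0.10 with libraries left out. With libraries left out, Ccr7 was -0.02 to 0.21 for Tfh over Th1 and -0.01 to 0.21 for Th17 over Th1, S1pr4 was -0.01 to 0.25 for Tfh over Th17, and S1pr2 was -0.19 to 0.15 for Tfh over Th1, where it was 0.04 with library size only. Genes called between Tfh and Th17 numbered 2113, against 3385 with the GC correction and 3948 with the replicate block and GC correction. Of 2221 values of other named genes, 62 lost their call and 0 changed sign. Same-numbered libraries correlated at -0.102 to 0.57 and 5 of 15 libraries correlated best with their own number, so the numbers are not shown to pair samples. With the replicate block, 2941, 6923 and 5487 genes were called for Tfh over Th17, Tfh over Th1 and Th17 over Th1, and the receptor calls did not change. Counts were few for S1pr2, at 10.4 to 34.9 CPM, and for Cxcr5 in Th1, at 7.85 to 12.8 CPM.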
